A study of Homo sapiens with 24 samples.

Results

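The genes described here are 9 genes of the RAS and ERK pathway: the GTPase gene NRAS, the phosphatase genes DUSP4, DUSP5 and DUSP6, the inhibitor genes SPRY2, SPRY4 and SPRED1, and the transcription factor genes ETV4 and ETV5. They were picked by gene symbol among the non-control spots of 24 two-colour Agilent gene expression arrays of human cancer cell lines, and all 9 had a probe. They had 11 probes, among the 42405 probes of the first array design, which named 19826 genes, and the 50599 probes of the second, which named 20446 genes. NRAS and SPRY4 had 2 probes each, and the other members had 1 each.

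On every array, RNA of treated cells in the Cy5 channel was compared with RNA of control cells of the same line in the Cy3 channel. There was 1 array for each treatment and cell line, with no repeat and no dye swap. The lines were PC3, DU145 and LNCap (prostate cancer), A498 and 786O (renal cancer), and FaDu and SAS (head and neck squamous cancer). On slide 1, genistein, an isoflavone of soy that inhibits tyrosine kinases, was given to PC3 and DU145 cells and compared with cells labelled as having no treatment, which the study's methods describe as given vehicle. The same slide held si-CAV2, an siRNA against the caveolin gene CAV2, in A498 and 786O, miR-145 in PC3, DU145 and LNCap, and miR-375 in FaDu. Slide 2 held si-LAMB3, against a laminin chain gene, in FaDu and SAS, wogonin, a plant flavone, in SAS and FaDu, miR-23b, miR-24 and miR-27b in PC3, and miR-29a in SAS. Slide 3, of the second array design, held miR-143 in DU145 and PC3, si-GOLM1, against a Golgi membrane protein gene, in DU145 and PC3, miR-27b in 786O and A498, and the chemokine CXCL10 in 786O for 12 and 24 h. The controls were cells with a control miRNA for the miRNAs, with a control siRNA for the siRNAs, with DMSO for wogonin and without treatment for CXCL10.

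RAS proteins pass signals of growth factor receptors to RAF, MEK and the kinase ERK. ERK output includes the transcription of its own brakes: dual-specificity phosphatases that remove the phosphates from ERK, and Sprouty and SPRED proteins that act between receptor and RAF. ETV4 and ETV5, of the PEA3 group of ETS factors, are transcribed on ERK signaling too, so that the mRNA of these genes is widely read as a measure of ERK activity. The arrays measured mRNA and not ERK phosphorylation.

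The mature miRNAs are shown because 7 of them were transfected. The labels name no arm, and the arm shown is the one that the older name without a suffix stood for. The seed, bases 2 to 8, is in capitals, and the sequences are those of RefSeq, 5′ to 3′.
miR-143-3p: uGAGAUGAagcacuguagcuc
miR-145-5p: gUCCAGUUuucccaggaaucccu
miR-375-3p: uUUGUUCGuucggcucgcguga
miR-23b-3p: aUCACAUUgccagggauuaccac
miR-24-3p: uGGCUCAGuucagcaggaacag
miR-27b-3p: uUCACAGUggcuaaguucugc
miR-29a-3p: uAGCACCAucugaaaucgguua
The 7 seeds all differ, and the seeds of miR-23b and miR-27b share their first 5 bases, UCACA.

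The second probes of NRAS and SPRY4 are shown as well, because the first gave nearly the same ratio as its partner on most arrays while the second went against its partner where SPRY4 moved most. Each is 60 bases long, written 5′ to 3′ on the strand of the transcript, and has no stop codon in 1 of its 3 reading frames. On hg19, the NRAS probe A_33_P3317825 lies at chr1:115251165-115251224 and the SPRY4 probe A_33_P3338423 at chr5:141694487-141694546, both on the reverse strand.
NRAS A_33_P3317825: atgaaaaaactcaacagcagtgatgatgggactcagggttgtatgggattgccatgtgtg
SPRY4 A_33_P3338423: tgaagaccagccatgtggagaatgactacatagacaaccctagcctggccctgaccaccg
The other probe of SPRY4, A_24_P269062, lies at chr5:141690571-141690630. It was brighter on average over the arrays of each design and stands for the gene below, though it was dimmer than the second probe on several arrays of FaDu and 786O. The second probe stands for the gene on both CXCL10 arrays, where neither channel of the first was well above background.

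Of the spots, 53.2% to 67.6% were well above background in the control channels and 54.2% to 68.9% in the treated channels, and none was saturated. The treated share was the higher on every array. The control and treated shares were 55.9% and 56.5% with miR-143 in PC3, and 55.0% and 66.3% with wogonin in FaDu. Without a dye swap, dye and treatment cannot be told apart here, and the part of this difference in the ratios of dim probes was not tested. A498 and 786O controls had all 5 renal markers above background, FaDu had all 5 and SAS 4 of 5 squamous markers, and LNCap had all 6 prostate markers. Of these 6, PC3 and DU145 controls had 3 each above background on every array. The controls of the 3 PC3 arrays of miR-23b, miR-24 and miR-27b differed from each other by an SD of 0.19 to 0.20 (log2, over probes), and other pairs of PC3 controls by 0.53 to 0.63. They were therefore counted as 1 control sample, and the 3 ratios are not independent. The scanner software gave a technical error of 0.20 to 0.71 (log2, median 0.21) for the members' ratios.

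A log2 ratio of treated over control past 1.0, a 2-fold difference, is called large here, and it is a description of 1 array without a test. Of 216 values (9 genes on 24 arrays), 212 could be read, and 31 of these were large, 23 above 1.0 and 8 below -1.0. This is 14.6% of the values, beside 8.69% of all gene values on the same arrays. With the mean of the other treatments subtracted from each ratio the split was 15 above and 19 below, and with normexp background correction it was 10 and 7. All 31 lay on the first array design (slides 1 and 2). On the 8 arrays of slide 3, the members' ratios ran from -0.95 to 0.59 and none was large. The second design and slide 3 cannot be told apart from their treatments. DUSP6 was large on 7 arrays, ETV5 on 6, DUSP5 and SPRY4 on 4 each, NRAS and ETV4 on 3 each, SPRY2 on 2, and DUSP4 and SPRED1 on 1 each.

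**Figure D1:**
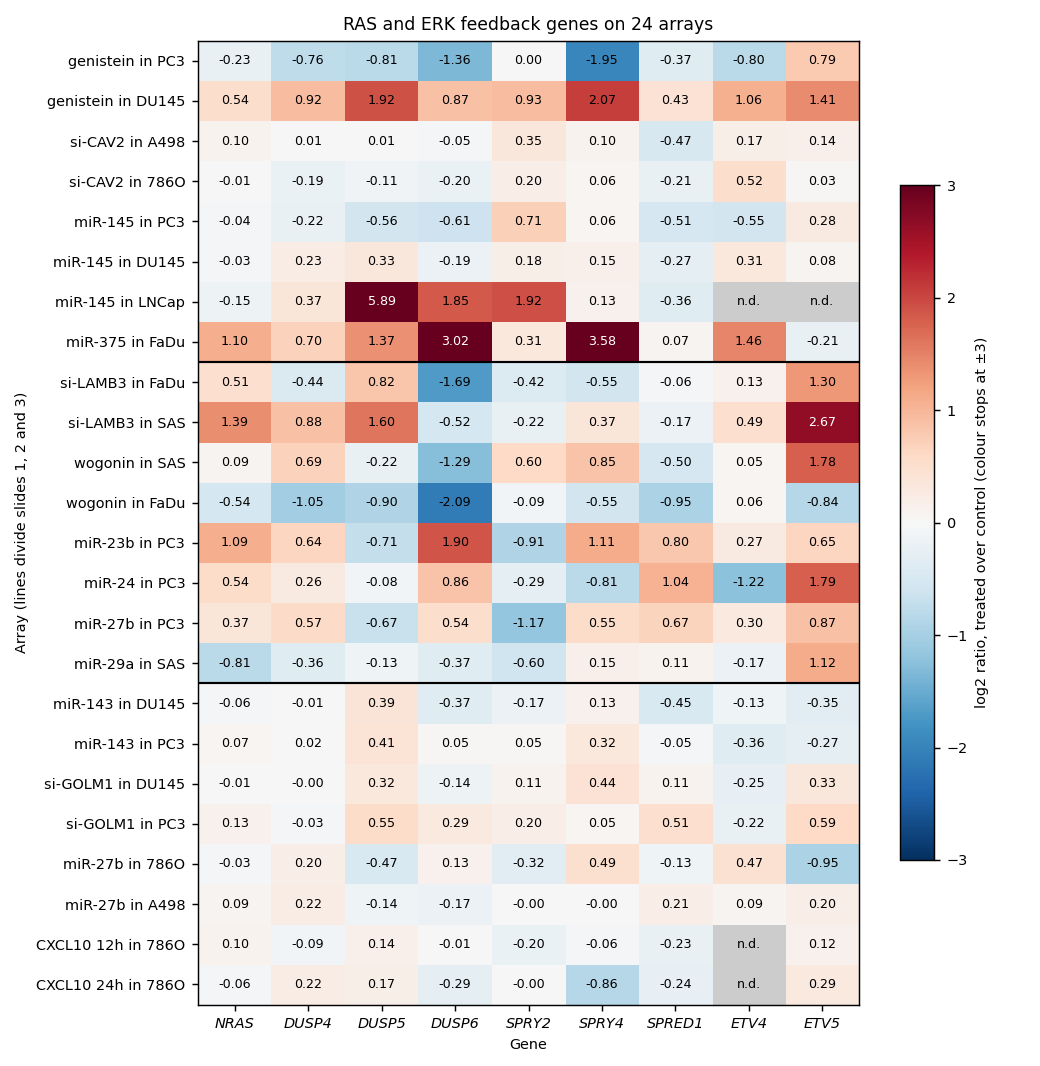
Log2 ratio (treated over control) of each of the 9 genes (columns) on each of the 24 arrays (rows), by the readable probe that was brightest on average over the design. Cells marked n.d. were at background in both channels. The strongest colours stand for DUSP5 in LNCap with miR-145 (5.89) and for SPRY4 (3.58) and DUSP6 (3.02) in FaDu with miR-375, and the 8 rows of slide 3 stay between -0.95 and 0.59.

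The members did not move as a block. DUSP6 ran from -2.09 (wogonin in FaDu) through a median of -0.16 to 3.02 (miR-375 in FaDu), with 3 large values above and 4 below 0. SPRY4 ran from -1.95 to 3.58, median 0.13. DUSP5 had 4 large values, all above 0, and ran from -0.90 to 5.89. ETV5 had 6, all above 0, and ran from -0.95 to 2.67. NRAS ran from -0.81 to 1.39, with all 3 of its large values above 0. DUSP4 ran from -1.05 to 0.92, SPRED1 from -0.95 to 1.04 and SPRY2 from -1.17 to 1.92.

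**Figure D2:**
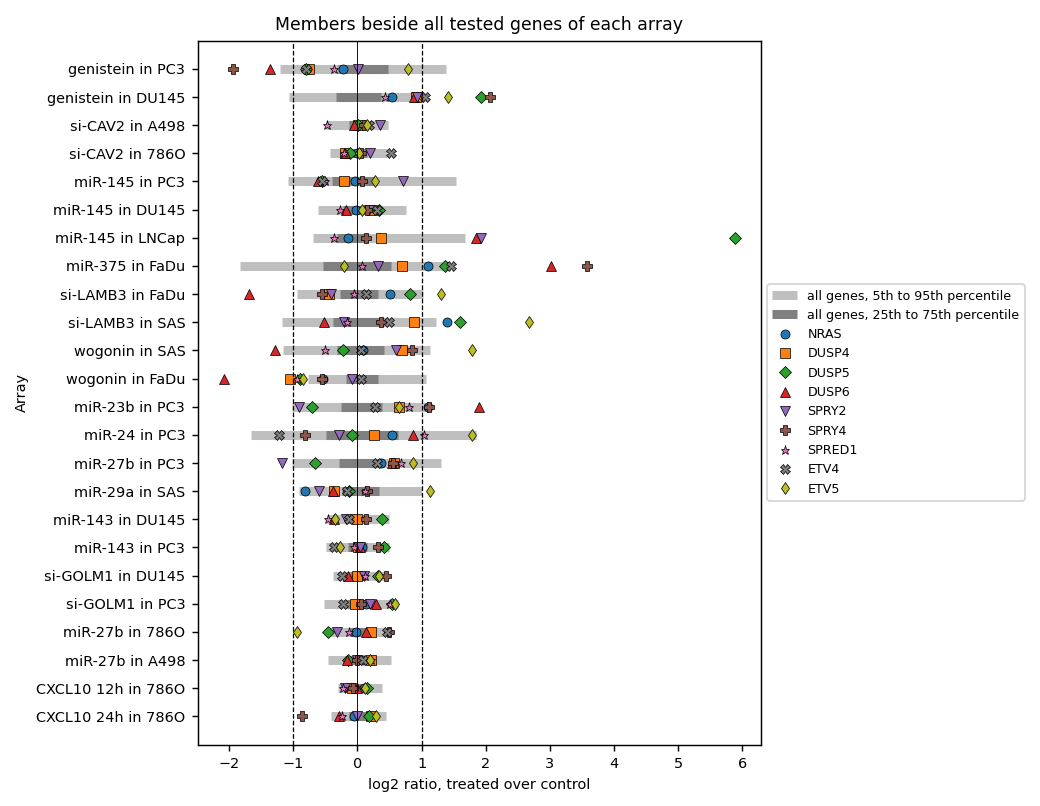
Log2 ratios of the 9 genes (symbols) on each array, beside the range of all tested genes of that array (light bar, 5th to 95th percentile, and dark bar, 25th to 75th). Dashed lines mark a log2 ratio of 1.0 either way. DUSP6 lies outside the light bar in both directions, at -2.09 with wogonin in FaDu and at 3.02 with miR-375 in FaDu.

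For the 8 treatments with several lines, the mean over the lines was tested against 0 with limma, with the Benjamini-Hochberg adjustment over all tested probes of the design. By the probe that stands for the gene, 0 of 70 tests of members had an adjusted p under 0.05 (limma), and 10 had an unadjusted p under it, which is 14.3% of them beside 4.68% to 27.2% of all probes in the 8 treatments. The share of all tested probes called by limma was 9.41% for genistein, 6.61% for miR-145, 7.43% for si-LAMB3, 3.49% for wogonin, 0.123% for si-CAV2, 0.00754% for miR-27b in the renal lines, 0.00385% for miR-143 and 0.116% for si-GOLM1. With no background correction 3 of the 70 tests were called and with the normexp correction 4, namely ETV5 with genistein (adjusted p = 0.0144 and 0.0145, limma), NRAS with si-LAMB3 (0.0418 and 0.0395), DUSP5 with si-GOLM1 (0.0493 and 0.0246) and, with normexp, DUSP5 with miR-143 (0.0465). The shares of all probes above are those of the main fit. The share called under these corrections is not given, so these counts cannot be set against it. Without DU145, SPRY4 in the 1 remaining genistein line was called (log2 ratio -1.95, adjusted p = 0.0419, limma), a value that borrows its spread from other treatments. The lines of a treatment were the only repeats, and the spread was estimated jointly over all treatments of a design. The error of each mean thus holds differences between lines in other treatments too, and does not measure the spread of its own lines. For DUSP5 with si-CAV2 the error was 1.29, where the lines gave 0.01 in A498 and -0.11 in 786O.

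**Figure D3:**
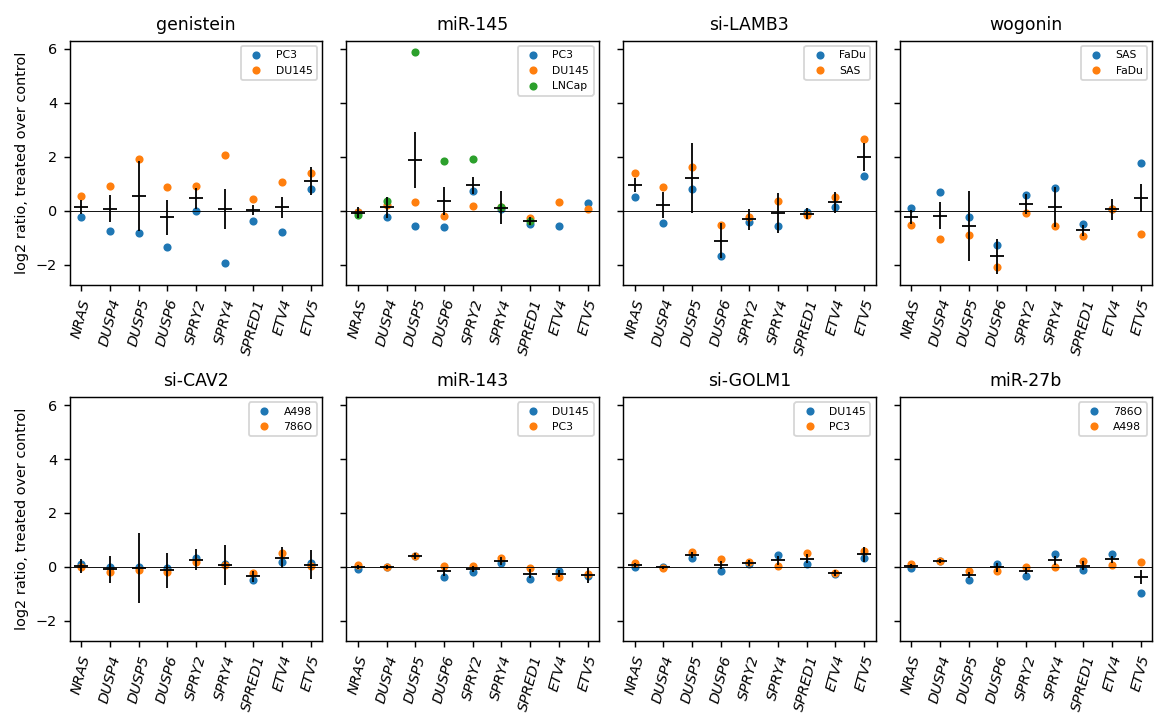
Log2 ratio of each gene in each cell line (coloured points) and the mean over the lines with its standard error from limma (black), for the 8 treatments with 2 or 3 lines. Points of PC3 and DU145 lie on opposite sides of 0 for DUSP4, DUSP5, DUSP6, SPRY4 and ETV4 with genistein, and all points of si-CAV2, miR-143, si-GOLM1 and miR-27b lie within 1.0 of 0.

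With genistein, most of the feedback genes had ratios below 0 in PC3 and above 0 in DU145. The phosphatase genes gave -0.76 (DUSP4), -0.81 (DUSP5) and -1.36 (DUSP6) in PC3, and 0.92, 1.92 and 0.87 in DU145. SPRY4, an inhibitor of receptor signaling to RAS, gave -1.95 in PC3 and 2.07 in DU145. ETV4 gave -0.80 and 1.06. These 5 genes lay past 0.5 in opposite directions. In DU145, SPRY4 was 0.76 with normexp, 1.11 with no background correction and 0.80 as the mean of both probes, and ETV4 was 0.58 with normexp. ETV5 alone lay past 0.5 in the same direction, at 0.79 in PC3 and 1.41 in DU145 (mean 1.10 ± 0.53 SE, adjusted p = 0.223, limma, 2 lines). SPRY2 gave 0.00 and 0.93, SPRED1 -0.37 and 0.43, and NRAS -0.23 and 0.54.

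In PC3, 2 of 9 members were large, both below 0, where 16.3% of all genes were large and 6.88% lay below -1.0. In DU145, 4 of 9 were large, all above 0, where 11.5% of all genes were large and 5.69% lay above 1.0. The median of the members was -0.76 in PC3 and 0.93 in DU145, and the median of all genes was 0.09 and 0.00. The means over both lines were near 0 with wide errors, as 0.06 ± 0.75 for SPRY4 and -0.24 ± 0.65 for DUSP6 (adjusted p = 0.970 and 0.846, limma). The second SPRY4 probe did not share the difference between lines: it gave -1.08 in PC3 and -0.47 in DU145 and was called by limma (mean -0.78 ± 0.19 SE, adjusted p = 0.0380). The call was lost with normexp (mean -0.28), with no background correction (-0.39), without PC3 (-0.47), without a filter on dim probes and with only the 2 genistein arrays in the fit.

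The control channels of the genistein arrays differed from other controls of the same lines. Levels are given as log2 of the signal over the 75th percentile of the array, and are compared only within a probe. In PC3, DUSP6 stood at 4.04 in the control of genistein, at 1.71 in that of miR-145 and at 2.71 to 2.79 in those of miR-23b, miR-24 and miR-27b. SPRY4 stood at 2.26, at -1.26 and at 0.83 to 0.89 in the same controls. The genistein control was thus the highest of the PC3 controls of the design for both genes. With genistein, the PC3 levels were 2.70 for DUSP6 and 0.33 for SPRY4, within the range of those controls. In DU145 the order was turned: DUSP6 stood at 0.47 in the genistein control and at 1.35 in the miR-145 control, and SPRY4 at -4.70 and -2.21. With genistein, DU145 reached 1.33 for DUSP6 and -2.64 for SPRY4. The part of these control levels in the ratios was not tested.

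**Figure D4:**
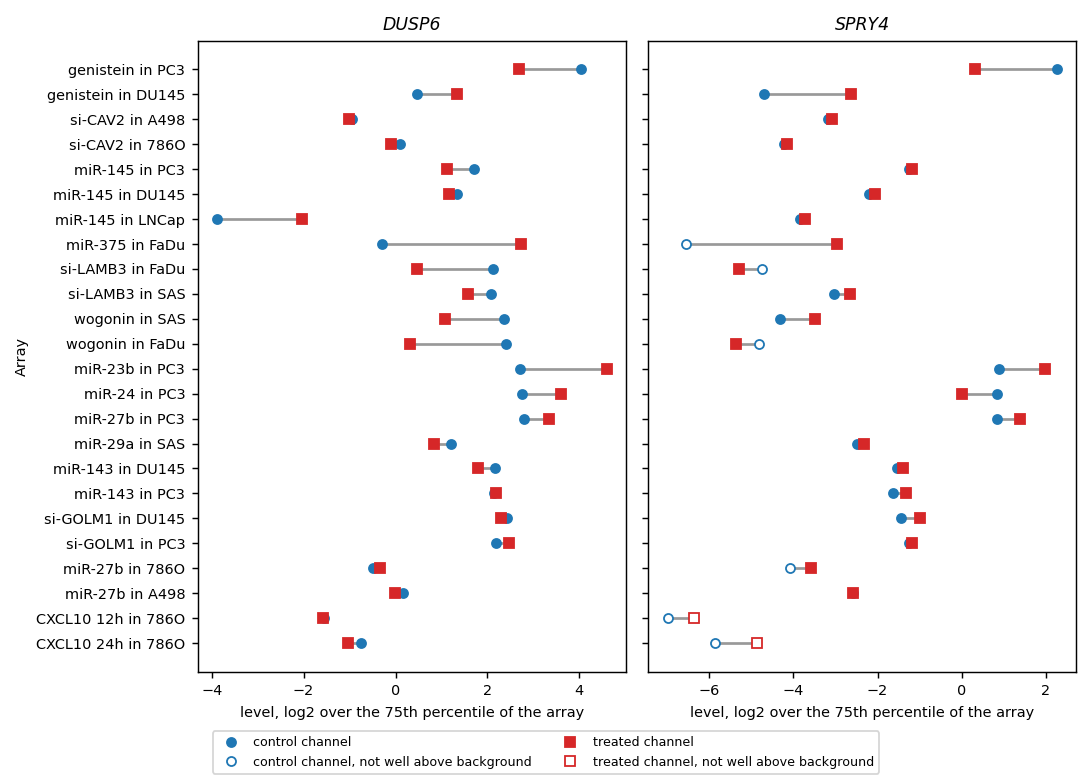
Level of DUSP6 (left) and SPRY4 (right, probe A_24_P269062) in the control channel (blue) and the treated channel (red) of each array, as log2 over the 75th percentile of the array. Open symbols were not well above background. The genistein control of PC3 is the highest blue point for DUSP6 (4.04) and SPRY4 (2.26), and the miR-375 control of FaDu (-0.30 for DUSP6) lies below the other FaDu controls.

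On the miR-375 array in FaDu, 5 of 9 members were large, all above 0, where 24% of all genes were large and 10.6% lay above 1.0. DUSP6, a phosphatase that acts on ERK in the cytoplasm, had a log2 ratio of 3.02, and DUSP5, its nuclear relative, 1.37. SPRY4 had a log2 ratio of 3.58 with the control not well above background, a difference of at least 9.31-fold. Such bounds set the bright channel of the processed signals against the lowest signal that is well above background, and are open to dye bias. The ratio of SPRY4 was 0.77 with normexp and 1.22 with no background correction, and that of ETV4 0.60 and 0.75. The second SPRY4 probe, above background in both channels, gave -0.92 on the same array, so that the direction of SPRY4 depends on the probe. ETV4 was at 1.46 and NRAS at 1.10, with 1.16 for the second NRAS probe. DUSP4 was at 0.70, SPRY2 at 0.31, SPRED1 at 0.07 and ETV5 at -0.21. The control level of DUSP6 on this array (-0.30) was below those of the other FaDu controls (2.13 and 2.40), and the treated level (2.73) was close to them. The part of the low control in the ratio was not tested.

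With miR-145, the prostate lines differed. In LNCap, 3 of the 7 members that could be read were large, all above 0, where 9.18% of all genes were large and 7.67% lay above 1.0. DUSP5 had a log2 ratio of 5.89 with the control not well above background, a difference of at least 42.3-fold on the processed signals. SPRY2 was at 1.92 and DUSP6 at 1.85. With normexp the 3 ratios were 2.36, 0.96 and 0.92, and with no background correction 3.13, 1.30 and 1.19. The LNCap control levels of these 3 genes (-6.47, -3.69 and -3.88) were the lowest of the 7 lines of the design. ETV4 and ETV5 stayed at background in both LNCap channels. In PC3 (14.4% of all genes large) and DU145 (5.02%), 0 of 9 members were large. DUSP5 gave -0.56 in PC3 and 0.33 in DU145, and DUSP6 -0.61 and -0.19. SPRY2 was above 0 in all 3 lines (0.71, 0.18 and 1.92, mean 0.94 ± 0.31 SE, adjusted p = 0.107, limma), and so was SPRY4 (0.06, 0.15 and 0.13). SPRED1, which blocks RAS activation together with neurofibromin, was below 0 in all 3 (-0.51, -0.27 and -0.36, mean -0.38 ± 0.16 SE, adjusted p = 0.202, limma). NRAS gave -0.04, -0.03 and -0.15, and -0.59, -0.32 and -0.15 by its second probe.

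With si-LAMB3, NRAS and DUSP5 had ratios above 0 and DUSP6 below 0 in both squamous lines. NRAS gave 0.51 in FaDu and 1.39 in SAS (mean 0.95 ± 0.25 SE, adjusted p = 0.0569, limma), and its second probe gave 0.41 and 1.34. DUSP5 gave 0.82 and 1.60, and DUSP6 -1.69 and -0.52. The phosphatases of ERK thus lay on opposite sides of 0, with means of 1.21 ± 1.29 (DUSP5) and -1.11 ± 0.65 (DUSP6) and adjusted p of 0.604 and 0.323 (limma, 2 lines). These errors hold the spread in all treatments of the design, not only that between FaDu and SAS. ETV5 gave 1.30 and 2.67, but its control was not well above background in either line. The difference was at least 3.63-fold over both lines on the processed signals (adjusted p = 0.0579, limma), and the ratios were 0.11 and 0.72 with normexp. SPRY4 gave -0.55, with a FaDu control not well above background, and 0.37 (-0.07 and 0.07 by the second probe), DUSP4 -0.44 and 0.88, ETV4 0.13 and 0.49, SPRY2 -0.42 and -0.22, and SPRED1 -0.06 and -0.17. In FaDu 2 of 9 members were large (9.45% of all genes), and in SAS 3 of 9 (14.4%).

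With wogonin, DUSP6 and SPRED1 had ratios below 0 in both lines. DUSP6 gave -1.29 in SAS and -2.09 in FaDu (mean -1.69 ± 0.64 SE, adjusted p = 0.174, limma). SPRED1 gave -0.50 and -0.95 (mean -0.72 ± 0.20 SE, adjusted p = 0.0869, limma). Other members differed between the lines. DUSP4, a nuclear phosphatase, gave 0.69 in SAS and -1.05 in FaDu, SPRY4 0.85 and -0.55, and ETV5 1.78 and -0.84. The ETV5 control in SAS was not well above background, and the difference there was at least 1.43-fold, with a ratio of 0.23 with normexp. The SPRY4 control in FaDu was not well above background either by this probe, and the second SPRY4 probe gave 0.63 in SAS and 0.10 in FaDu. DUSP5 gave -0.22 and -0.90, NRAS 0.09 and -0.54, SPRY2 0.60 and -0.09, and ETV4 0.05 and 0.06. In SAS 2 of 9 members were large (13% of all genes) and in FaDu 2 of 9 (8.65%), and the median of the members was 0.09 and -0.84.

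In PC3, miR-23b, miR-24 and miR-27b are made from 1 gene cluster, and their arrays may share 1 control RNA, so the values are given side by side. With miR-23b (11.2% of all genes large), DUSP6 was at 1.90, SPRY4 at 1.11 and NRAS at 1.09, with 0.69 for the second probe of SPRY4. With miR-24 (28.3%), ETV5 was at 1.79 (1.17 with normexp), SPRED1 at 1.04 and ETV4 at -1.22. With miR-27b (13.7%), SPRY2 was at -1.17. Thus 3, 3 and 1 of the 9 members were large. SPRY2 was below 0 on all 3 arrays (-0.91, -0.29 and -1.17), as was DUSP5 (-0.71, -0.08 and -0.67). DUSP6 (1.90, 0.86 and 0.54), ETV5 (0.65, 1.79 and 0.87), SPRED1 (0.80, 1.04 and 0.67), DUSP4 (0.64, 0.26 and 0.57) and NRAS (1.09, 0.54 and 0.37) were above 0 on all 3. The second NRAS probe gave 1.05, 0.43 and -0.17. SPRY4 (1.11, -0.81 and 0.55) and ETV4 (0.27, -1.22 and 0.30) were below 0 with miR-24 alone.

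With miR-29a in SAS (9.08% of all genes large), ETV5 was the only large member, at 1.12 (0.49 with normexp). NRAS was at -0.81 (-0.65 by its second probe), its lowest value on the 24 arrays, and SPRY2 at -0.60. The other members lay between -0.37 and 0.15.

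On the remaining arrays no member was large. Some still lay outside the 5th to 95th percentile of all genes on these quiet arrays. Among them were ETV5 with miR-27b in 786O (-0.95, 5th percentile -0.47) and SPRY4 with CXCL10 at 24 h (-0.86, 5th percentile -0.41). With miR-143, for which 2.6% of all genes were large in DU145 and 2% in PC3, the members ran from -0.45 (SPRED1, DU145) to 0.41 (DUSP5, PC3). DUSP5 was the member with the smallest p, at 0.39 in DU145 and 0.41 in PC3 (mean 0.40 ± 0.11 SE, adjusted p = 0.223, limma). NRAS gave -0.06 in DU145 and 0.07 in PC3 (mean 0.00 ± 0.08 SE) and its second probe -0.14 and 0.19. With si-GOLM1 (1.13% of all genes large in DU145 and 2.76% in PC3), DUSP5 was again above 0 in both lines, at 0.32 and 0.55 (mean 0.43 ± 0.11 SE, adjusted p = 0.175, limma). The largest other value was 0.59, of ETV5 in PC3.

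With si-CAV2 (2.12% of all genes large in A498 and 1.99% in 786O), the largest values were 0.52 for ETV4 in 786O and -0.47 for SPRED1 in A498. With miR-27b in 786O (2.81%) and A498 (2.59%), ETV5 was at -0.95 in 786O and 0.20 in A498, and DUSP4 at 0.20 and 0.22 (mean 0.21 ± 0.07 SE, adjusted p = 0.287, limma). In PC3 the same miRNA had given 0.87 for ETV5, on the other array design. With CXCL10 in 786O, 1.9% of all genes were large at 12 h and 1.99% at 24 h. The members lay between -0.23 and 0.14 at 12 h. At 24 h SPRY4 was at -0.86 and the others lay between -0.29 and 0.29. ETV4 was not well above background at either time, and SPRY4 was read there by its dim second probe.

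The level of these genes in untreated or control cells differed between the lines. In the first design, PC3 had the highest control level of DUSP4 (2.57 ± 0.50 SD, n = 3), DUSP5 (0.43 ± 0.38), DUSP6 (2.83 ± 1.17), SPRY2 (1.33 ± 0.57), SPRY4 (0.62 ± 1.77), SPRED1 (0.03 ± 0.25) and ETV4 (0.12 ± 0.54), and the lowest of NRAS (-1.74 ± 0.24). LNCap, with 1 control, had the lowest level of DUSP5, DUSP6, SPRY2, SPRED1, ETV4 and ETV5. NRAS was highest in 786O (1.09, n = 1), followed by FaDu (0.65 ± 0.39, n = 3), SAS (0.37 ± 0.32, n = 3), A498 (0.06, n = 1), DU145 (-0.46 ± 0.69, n = 2), LNCap (-0.77, n = 1) and PC3.

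Pairs of lines with several controls were compared with limma. PC3 and SAS differed in 7 of 9 members (42.2% of all probes called), and PC3 and FaDu in 6 of 9 (42.8%). Against both, PC3 was higher in DUSP4, ETV4, SPRED1, SPRY2 and SPRY4 and lower in NRAS. NRAS lay 2.39 ± 0.31 (SE, log2) higher in FaDu than in PC3 (adjusted p = 0.000159, limma) and 2.11 ± 0.31 higher in SAS (adjusted p = 0.000384, limma). ETV4 was lower in FaDu, with a difference of -4.21 ± 0.50 from PC3 (adjusted p = 8.43e-05, limma). By its brighter probe, SPRY4 was not well above background in any of 3 FaDu controls, and by this probe was at least 59.6-fold higher in PC3. The second SPRY4 probe, above background in all 3 FaDu controls, gave FaDu minus PC3 as -0.10 ± 0.28 (adjusted p = 0.794, limma), so that the difference between lines depends on the probe. PC3 and DU145 differed in 5 of 9 (25.4%). DU145 minus PC3 was -3.28 ± 0.58 for DUSP4, -3.02 ± 0.56 for ETV4, -1.20 ± 0.29 for SPRED1 and -4.07 ± 1.05 for SPRY4, and 1.28 ± 0.35 for NRAS (SE, log2). By the second SPRY4 probe it was -0.32 ± 0.32 (adjusted p = 0.523, limma), so that this difference depends on the probe as well. DU145 differed from FaDu in NRAS only (26.6%), from SAS in ETV5 and SPRED1 (27.1%), and FaDu from SAS in SPRED1 only (28.2%). DUSP5 and DUSP6 were not called in any of these 6 pairs, which does not show that their levels were equal. With slide as a block, 5 of the 22 calls were lost, namely NRAS between DU145 and FaDu, ETV5 and SPRED1 between DU145 and SAS, SPRED1 between FaDu and SAS, and ETV5 between PC3 and SAS. Neighbours in the order of NRAS that did not pass the test were FaDu and SAS (FaDu minus SAS 0.28 ± 0.31) and SAS and DU145 (DU145 minus SAS -0.82 ± 0.35, adjusted p = 0.545 and 0.109, limma).

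In the second design, 786O had low levels of the feedback genes. It was lower than DU145 in DUSP4, DUSP5, DUSP6, ETV5, SPRY2 and SPRY4 and higher in NRAS (28.4% of all probes called), and lower than PC3 in DUSP4, DUSP6, ETV4, SPRY2 and SPRY4 and higher in NRAS (29.4%). For DUSP6, 786O minus DU145 was -3.23 ± 0.34 and 786O minus PC3 -3.10 ± 0.34 (adjusted p = 0.00145 and 0.00148, limma). By the same SPRY4 probe no 786O control of 3 was well above background, and the level was at least 9.33-fold higher in DU145 and 9.69-fold higher in PC3. The second probe, above background in 2 of these 3 controls, gave 786O minus DU145 as -0.60 and 786O minus PC3 as -0.66 (adjusted p = 0.359 and 0.326, limma). PC3 and DU145 differed in 2 of 9 members (20.4%): DU145 minus PC3 was -1.70 ± 0.27 for DUSP4 and 1.73 ± 0.24 for NRAS. Both had the same direction in the first design. In the second, DU145 and not PC3 had the highest mean of DUSP5 (by 1.38 ± 0.60), DUSP6 (2.29 beside 2.16), SPRY2 (1.90 beside 0.84) and SPRED1 (-0.73 beside -0.92), none of them called. SPRY4, with a difference of -4.07 in the first design, had -0.05 ± 0.87 in the second (adjusted p = 0.975, limma). By the second SPRY4 probe the difference was -0.32 in the first design and -0.06 in the second, and neither was called. The treatments of the controls (none, DMSO, control miRNA or siRNA) differ between lines and cannot be told apart from them, and nothing states that controls of a line came from separate cultures.

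**Figure D5:**
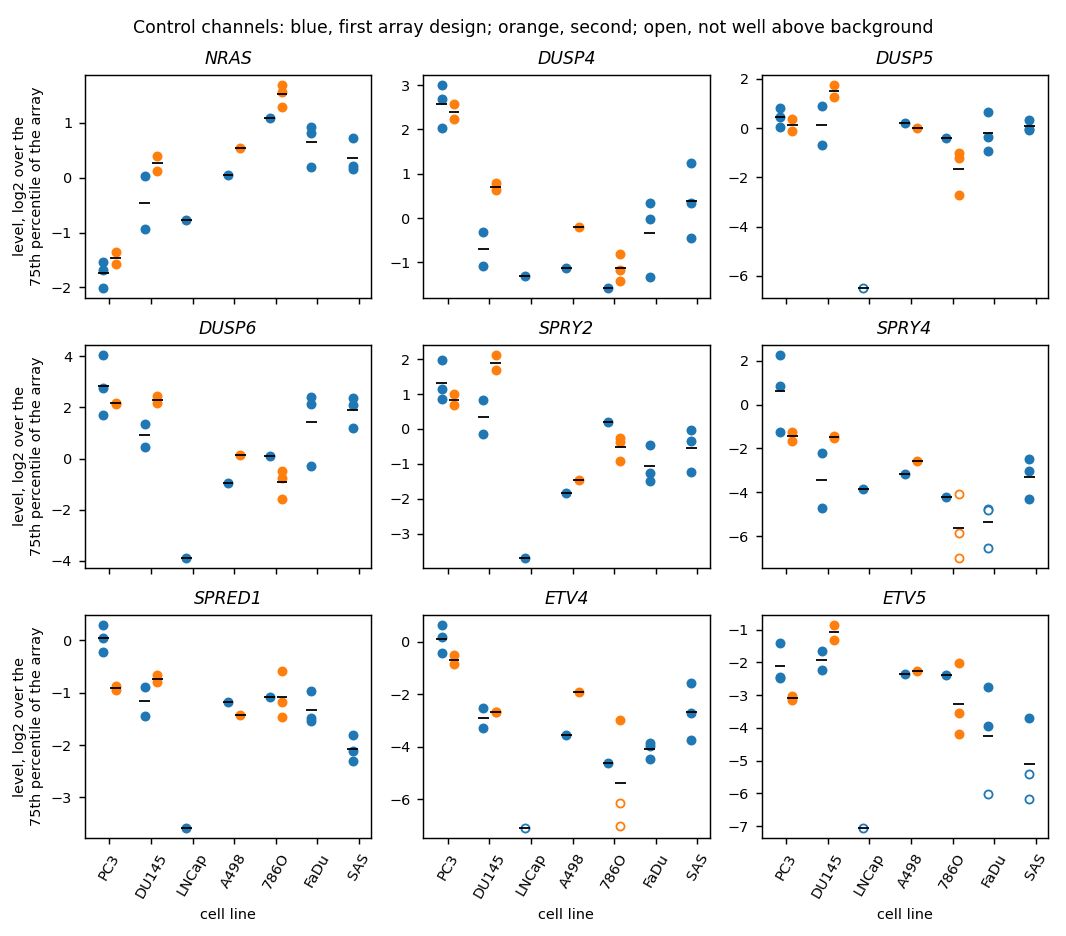
Level of each gene in the control channels by cell line, as log2 over the 75th percentile of the array (blue, first array design; orange, second; bar, mean of a line; open, not well above background). The panels have their own scales. NRAS is lowest in PC3 (-1.74 and -1.46), where DUSP4 (2.57 and 2.40) is highest.

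Other genes of the pathway were described from 3 lists. Over the lines of a treatment, limma called 8 of 493 tests of list genes, of which 6 are given. All were with genistein, miR-145 or si-LAMB3, where 9.41%, 6.61% and 7.43% of all tested probes were called. In the cascade the calls were 1 of 26 genes with genistein, 1 of 25 with miR-145 and 3 of 28 with si-LAMB3. Among other brakes they were 1 of 19 with miR-145, and among other output genes 1 of 14 with miR-145 and 1 of 16 with si-LAMB3. Of 28 cascade genes, from adaptors to ERK substrates, RRAS2, a RAS relative, rose with genistein (0.58 in PC3 and 0.83 in DU145, adjusted p = 0.0361, limma). PTPN11, the phosphatase SHP2 that links receptors to RAS, fell with miR-145 (-1.07 in PC3, -0.84 in DU145 and -0.35 in LNCap, adjusted p = 0.0284, limma). With si-LAMB3, the kinase gene BRAF (-0.52 in FaDu and -0.70 in SAS, adjusted p = 0.0365, limma) and the GTPase gene RRAS (-1.15 and -0.68, adjusted p = 0.0411, limma) fell, while NRAS gave 0.51 and 1.39. Of 23 other brakes, RASA3, a RAS GTPase activating protein, fell with miR-145 (mean -0.62 ± 0.15 SE, adjusted p = 0.0476, limma). Of 16 other ERK output genes, IER2 rose with miR-145 (0.53 ± 0.13, adjusted p = 0.0414, limma).

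On the miR-375 array in FaDu, 7 of the 16 other ERK output genes were above 1.0 and 1 below -1.0, with a list median of 0.73 beside 0.02 for all genes. FOSL1, an AP-1 subunit, was at 2.72, PLAUR at 2.23, IER3 at 1.94 and EPHA4 at -1.43. Of the other brakes, 4 of 21 were above 1.0 and 1 below -1.0 (SPRY3, -1.34), beside 10.6% and 13.4% of all genes. On the processed signals, DUSP2 and DUSP7 were at least 12.3-fold and 7.81-fold higher than controls not well above background, and DUSP10 was at 2.30. Values of these list genes with other background corrections are not given. Of the cascade, 1 of 28 genes was above 1.0 and 3 were below -1.0 (RRAS -1.87, SHC1 -1.46 and SOS2 -1.36). On the miR-145 array in LNCap, 6 of 14 other output genes were above 1.0 and none below -1.0, beside 7.67% and 1.51% of all genes. Their median was 0.77, beside -0.10 for all genes. EGR1 (5.93), PLAUR (4.83) and FOS (4.29) were the 3 highest and are named after their values were seen. With miR-145 in PC3, 4 of 16 other output genes were above 1.0 and 2 below -1.0, beside 8.48% and 5.88% of all genes. Their median in PC3 was -0.07, beside -0.05 for all genes. In DU145, 1 of 15 was above 1.0 and 0 below -1.0, beside 3.58% and 1.44%.

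On the PC3 array of miR-24, 5 of 27 cascade genes were below -1.0, among them ARAF (-2.34) and RRAS (-1.76), and 2 were above 1.0, where 28.3% of all genes were large. On those of miR-23b and miR-27b, none of the cascade was large, beside 11.2% and 13.7% of all genes. The other brakes lay on both sides of 0 on these arrays. With miR-23b, 2 of 21 were above 1.0 and 2 below -1.0. With miR-24, 3 of 22 were above 1.0 and 3 below -1.0, and with miR-27b 3 of 21 and 2. Among those below, ERRFI1, which blocks the EGF receptor, was at -2.17, -1.84 and -2.05 with miR-23b, miR-24 and miR-27b. Among those above, DUSP2 was at 1.80, 1.46 and 1.11, each time with a control not well above background. With miR-29a, 2 of 22 other brakes were below -1.0, ERRFI1 (-1.25) and RASA3 (-1.01), beside 4.03% of all genes. With CXCL10 the only large gene of the lists was GAB1 at 24 h. On the processed signals it was at least 1.49-fold higher than a control not well above background.

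Over the 16 arrays of the first design, the ratios of 7 members tested on every array were compared pairwise. Of 21 pairs, 18 had a correlation above 0, with a median Pearson r of 0.45, from -0.47 for SPRED1 with SPRY2 to 0.71 for DUSP4 with NRAS. DUSP4 with SPRY4 (0.70), DUSP5 with SPRY2 (0.70) and DUSP6 with SPRY4 (0.68) followed. DUSP5 (5.89) and SPRY2 (1.92) both had their highest ratio on the miR-145 array of LNCap, where the DUSP5 control was not well above background. The weight of that array in the correlation was not tested, and no share above 0 is given for other pairs of genes. The arrays share slides, lines and in 3 cases perhaps a control, so these are descriptions. Among 11827 genes tested on all 16 arrays, the genes most like each member, by their names in the array design, were CXorf26 and KIF1B for NRAS (r = 0.87 and 0.85), CBWD5 and FUT8 for DUSP4 (0.80 and 0.79), SYDE1 and NOV for DUSP5 (0.88 and 0.87), CD44 and GAD1 for DUSP6 (0.85 and 0.83), NEDD1 and TTC26 for SPRY2 (0.90 and 0.85), C15orf52 and HAUS7 for SPRY4 (0.91 and 0.89) and DIMT1L and BAG4 for SPRED1 (0.86 for both). ETV4 and ETV5 were left out, since neither could be read in LNCap.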

How the data were processed

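The authors deposited Agilent Feature Extraction 10.7.3.1 output of 24 arrays. The deposited intensity of each spot was raw or processed, the latter after the software had subtracted background and normalized the dyes. The log10 ratio of Cy5 over Cy3, also deposited, was converted to log2. The authors' series matrix differed from it by at most 0. Control and outlier spots (419 to 614 an array) were dropped, and spots of 1 probe were combined as their mean. Detection above background needed a share of 0.5 or more of the spots, and tested probes had it in 1 channel or both. A gene was the tested probe with the brightest mean over its design. Genes were matched by name to RefSeq (GRCh38.p14). Limma 3.58.1 in R 4.3.3 fitted the 16 and the 8 arrays of each design apart. The fits were tested on simulated data with the spread of the ratios and 200 changed probes. In the first design, a log2 change of 1 was found for 149 of them with miR-145 and for 15 between PC3 and DU145 controls. A change of 2 was found for 198 and 186. In the second design, a change of 1 was found for 186 with miR-143 and for 156 between these controls. Python 3.11.15 did the rest. Levels were log2 processed Cy3 signal minus the array's 75th percentile. Alternatives changed background correction (normexp, offset 50, or none), centring, source, dye bias, probe, filter, limit (0.5), scale, slide block and samples. The members and lists were chosen with earlier results of these data known. Named list genes were those called by limma or, on single arrays, past 1.0, at most 5 a list. Array number and 1 array per condition limit precision. Some list and marker genes are not reported here.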

Additional observations from a re-analysis of the deposited data

Results flagged for a closer look

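In 3 treatments with several lines in 1 design, members lay past 0.5 on the log2 scale in opposite directions in different cell lines. Each line had 1 array, and the difference between lines was not tested. With genistein, DU145 minus PC3 was 4.02 for SPRY4 (the second probe lay below 0 in both lines), 2.73 for DUSP5, 2.23 for DUSP6, 1.86 for ETV4 and 1.68 for DUSP4. With miR-145, LNCap minus PC3 was 6.45 for DUSP5, which rests on a LNCap control not well above background, and 2.46 for DUSP6. With wogonin, SAS minus FaDu was 2.63 for ETV5, with a SAS control not well above background, 1.74 for DUSP4 and 1.40 for SPRY4, with a FaDu control not well above background and with 0.63 in SAS and 0.10 in FaDu by the second probe, which do not oppose. With miR-27b, PC3 minus 786O was 1.82 for ETV5, across both array designs.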

How the results depend on the processing

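No paired analysis was possible because no replicate numbers link arrays, and each ratio already sets treated against control cells on 1 array. Large values of members numbered 31 and stayed at 21 to 34 with no background correction, median centring, the series matrix, other treatments subtracted, probes averaged or other filters, but were 17 with normexp and 80 at the limit of 0.5. With normexp this was 8.02% of member values beside 3.13% of all gene values, and in the main setting 14.6% beside 8.69%. Past 0.5 lay 5.69% to 55.0% of all genes, by array. With other treatments subtracted, 15 lay above and 19 below 0, in place of 23 and 8. SPRY4 with miR-375 in FaDu turned to -0.92 where both channels had to be above background, which leaves only the second probe. With limma, the 0 called members became 3 with no background correction and 4 with normexp, and 0 to 1 on leaving out a line. Between control lines, 37 of 80 tests were called in the main fit, 33 to 41 under other settings and 30 to 43 on leaving out a control. In the main fit between control lines, 20.4% to 42.8% of all probes were called, by pair. The share of all probes called under other settings is not given for either use of limma. Slide as a block ended 5 of 22 calls of the first design. Dim controls limit the ratios of DUSP5 in LNCap and of SPRY4, ETV4 and ETV5.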
